A study of Mus musculus with 8 samples.

Results

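The transcription factors described here were *Tcf7l2*, *Lhx9*, *Sim1*, *Otp*, *Barhl2*, *Foxb1*, *Lhx1*, *Lhx5* and *Rax*, 9 of the 54752 genes counted in each library, chosen by name as genes known from the thalamus and hypothalamus. They were chosen with earlier results of these data known, so counts among them describe these genes and do not test them as a set. Their RNA was measured by RNA-seq in the E15.5 fetal brain of wild-type C57BL/6 mice (C57BL/6Slac in the study's methods), in 1 library per brain. The stress group was 4 brains (F34, F35, M28 and M29, where F is female and M is male) of a dam exposed to chronic unpredictable mild stress (CUMS), a daily change of mild stressors such as restraint or wet bedding that ended the day before collection, and the control group was 4 brains (F36, F37, M30 and M31) of a dam left in its home cage. By the study's library list the brains of each group came from 1 litter. Stress and litter therefore cannot be told apart, and p-values here measure only the spread between brains. The same list gives the tissue as a portion of the brain where the sample labels give brain. Which portion was used is not known, and regions were not sequenced separately.

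The thalamus and hypothalamus arise side by side in the diencephalon, and homeodomain, LIM-homeodomain, forkhead, bHLH-PAS and TCF/LEF proteins divide them into nuclei. *Tcf7l2*, a DNA-binding effector of canonical Wnt signaling, marks postmitotic neurons of the thalamus and habenula. The LIM-homeodomain genes *Lhx9*, *Lhx1* and *Lhx5* and the Bar-class homeobox gene *Barhl2* pattern the diencephalon, *Sim1* and *Otp* are needed for the neuroendocrine neurons of the paraventricular nucleus, *Foxb1* marks the mammillary body, and *Rax* acts in the early hypothalamus and eye field. Several of these genes are also used elsewhere: *Lhx1* and *Lhx5* in Purkinje cells, *Lhx5* in the cortical hem and Cajal-Retzius cells, and *Barhl2* and *Lhx9* in the retina and hindbrain.

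Of the 9 genes, 8 passed the filter on low counts and *Rax* did not. All 8 had a higher mean in the stress group, and 5 of them were called higher by edgeR's quasi-likelihood test at an adjusted p under 0.05 (*Lhx9*, *Barhl2*, *Lhx1*, *Otp* and *Lhx5*), where 6.49% of the 17865 genes tested were called higher. None was called lower by edgeR, where 7.27% of all genes tested were, none had an unadjusted p under 0.05 in that direction, and DESeq2 called 0 lower. The differences were small, between 10.9% and 22.4% for the 5 genes called. *Lhx9* and *Barhl2* were also called by DESeq2's Wald test, which called 2 of the 8 genes higher where it called 4.19% of all genes tested higher and 5.1% lower, and *Lhx1*, *Otp* and *Lhx5* were not. In bulk RNA, more cells of a type and more RNA per cell cannot be told apart.

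Totals ranged from 25320109 to 29105710 counts per library, and mitochondrial genes took 2.1% to 2.31% of them. *Xist* and *Ddx3y*, which mark female and male tissue, fitted the sex label of every brain. Within each group, every pair of libraries differed by more than sampling noise, for which the mean chi-square per gene is about 1. It was between 1.97 and 2.98 for pairs of the same sex, so each brain was counted as its own sample. For pairs of a female and a male it was between 4.08 and 6.28, which also holds the difference between the sexes.

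On mm10, *Lhx9* lies at chr1:138825186-138848577 (minus strand), *Barhl2* at chr5:106452523-106458166 (minus), *Lhx1* at chr11:84518284-84525535 (minus), *Otp* at chr13:94875602-94885130 (plus) and *Lhx5* at chr5:120431699-120441223 (plus). *Tcf7l2* lies at chr19:55741810-55933654 (plus), *Sim1* at chr10:50894754-50989152 (plus) and *Foxb1* at chr9:69757710-69760940 (minus). The counts were made without strand, so bases shared with another gene cannot be assigned. These were 49.0% of the exon bases of *Rax* (with its antisense gene *Raxos1*), 14.01% of *Foxb1* and 2.57% of *Lhx5*, and 0% of the other 6 genes.

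The promoters of the genes called higher are shown because these genes moved in the same direction. RefSeq (GRCm38.p6) gave a promoter for 6 of the 9 genes and for 4 of the 5 called, all but *Lhx5*. Each sequence runs 5′ to 3′ over 200 bases, from position -250 to -51 before the RefSeq start of the gene. Capitals mark matches on either strand to CANNTG (the E-box) and CCAAT (the core bound by NF-Y, written ATTGG where it lies on the other strand).
Lhx9: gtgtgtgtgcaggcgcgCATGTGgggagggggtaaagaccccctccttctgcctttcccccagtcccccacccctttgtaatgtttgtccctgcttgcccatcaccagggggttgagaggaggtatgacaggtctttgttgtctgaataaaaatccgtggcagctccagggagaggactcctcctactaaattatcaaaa
Barhl2: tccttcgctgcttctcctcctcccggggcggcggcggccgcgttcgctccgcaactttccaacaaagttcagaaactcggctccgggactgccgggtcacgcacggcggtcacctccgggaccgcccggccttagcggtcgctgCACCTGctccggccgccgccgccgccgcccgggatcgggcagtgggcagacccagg
Lhx1: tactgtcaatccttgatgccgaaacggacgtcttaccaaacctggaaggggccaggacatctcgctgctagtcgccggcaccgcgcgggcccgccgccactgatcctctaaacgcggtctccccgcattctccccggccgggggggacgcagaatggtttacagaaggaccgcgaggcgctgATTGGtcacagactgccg
Otp: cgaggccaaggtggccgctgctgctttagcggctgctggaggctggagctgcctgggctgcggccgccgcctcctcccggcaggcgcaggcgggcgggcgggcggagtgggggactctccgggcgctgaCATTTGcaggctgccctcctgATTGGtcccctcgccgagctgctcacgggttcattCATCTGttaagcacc
These windows are chr1:138842495-138842694, chr5:106458217-106458416, chr11:84525585-84525784 and chr13:94875386-94875585. In the annotation used for counting, the *Lhx9* window lies inside the gene in no exon, that of *Lhx1* shares bases with exons of *Lhx1os*, and those of *Barhl2* and *Otp* lie before the gene in no exon. GC content was 54.0%, 73.0%, 63.5% and 70.5% in this order, against a median of 51.5% over all 32851 promoters. CANNTG was present once in *Lhx9* and *Barhl2* and at 2 places in *Otp*, and 59.0% of all promoters held it. CCAAT was present once in *Lhx1* and *Otp*, and 28.4% of all promoters held it. The homeodomain core TAATTA (4.19% of all promoters), the TCF/LEF core CTTTGA (11.8%) and the glucocorticoid receptor core TGTTCT (13.2%) were not found in these 4 windows, and no match overlapped another. No motif was shared by all 4 windows.

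Compared per length, as CPM (counts scaled to the same library size for every brain) per kilobase of exon, the 9 genes differed widely in level. In the control group, *Tcf7l2* was highest at 23.8 ± 0.538 CPM per kilobase (SD, n = 4), above 87.7% of the genes tested. It was followed by *Lhx9* (11.97 ± 0.653), *Lhx1* (11.2 ± 0.425), *Lhx5* (9.09 ± 0.508), *Otp* (8.84 ± 0.626), *Barhl2* (5.30 ± 0.338), *Foxb1* (2.66 ± 0.169), *Sim1* (0.594 ± 0.0451) and *Rax* (0.177 ± 0.0726) CPM per kilobase. Neighbours in this order were separate in every control brain except *Lhx9* and *Lhx1*, and *Lhx5* and *Otp*, whose ranges overlapped in both groups. Without the length, *Otp* came before *Lhx5*. Exon length merges all transcripts of a gene, and how much of it these brains used was not measured.

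**Figure D1:**
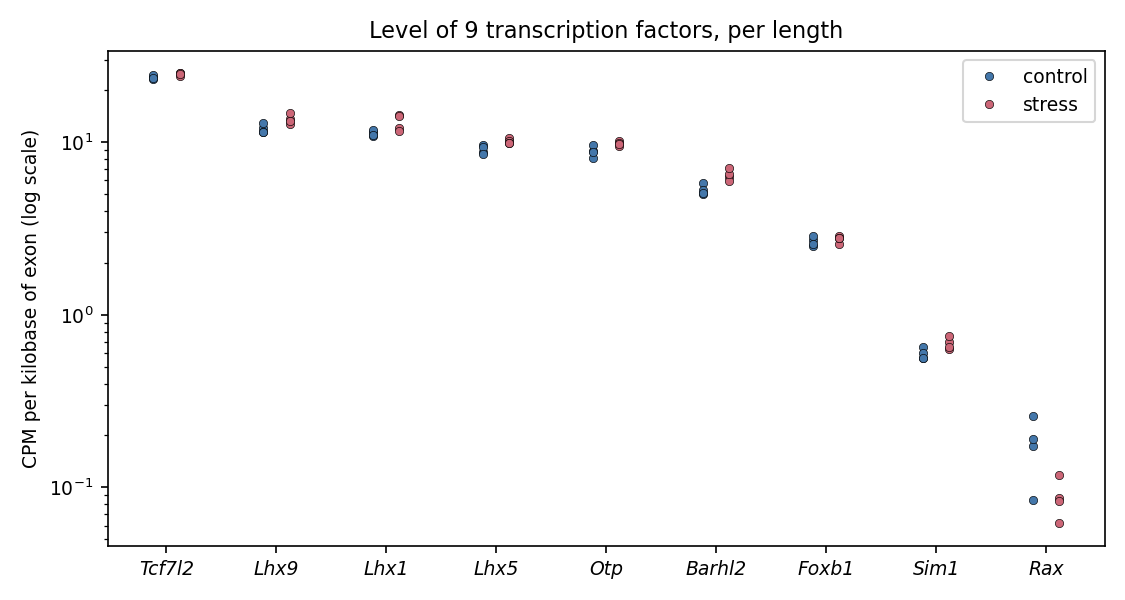
Level of the 9 transcription factors in CPM per kilobase of exon (log axis), 1 point per brain, control in blue and stress in red, ordered by the control mean. The control means run from 23.8 (*Tcf7l2*) to 0.177 (*Rax*) CPM per kilobase, and the order of the 9 genes by mean is the same in both groups.

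The LIM-homeodomain genes encode transcription factors that act together with cofactors that bind their LIM domains. *Lhx9* had the smallest p of the 9 genes, at rank 493 of the 17865 genes tested. Its level was 115, 109, 122 and 109 CPM in control F36, F37, M30 and M31, and 122, 129, 127 and 139.8 CPM in stress F34, F35, M28 and M29. The groups met at one point, where control M30 was just above stress F34, and M29 was the highest brain. The mean rose from 114 ± 6.20 to 129 ± 7.66 CPM (SD, n = 4), a change of 13.7% (95% interval 7.93% to 19.8%) or a Log2FC of 0.19 ± 0.04 (SE), with an edgeR adjusted p of 0.00111. The difference was called under each of the 13 alternatives tried (another test, normalization, filter or model, and each brain left out in turn), with a Log2FC between 0.15 and 0.21.

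*Lhx1* showed an uneven change within the stress group. It was at 46.7, 47.7, 44.0 and 44.7 CPM in the control brains, in the same order, and at 49.0, 58.6, 47.1 and 57.7 CPM in the stress brains. Stress F35 and M29 stood well above all others, while F34 and M28 lay close to the control range and M28 below control F37. The mean went from 45.8 ± 1.73 to 53.1 ± 5.93 CPM (SD, n = 4), with a coefficient of variation of 3.78% in the control and 11.2% in the stress group, where counting error alone gives about 2.70%. The Log2FC was 0.21 ± 0.05 (SE), with an edgeR adjusted p of 0.00759. This call rested on 2 brains, since the edgeR adjusted p was 0.0511 without F35 (Log2FC 0.16) and 0.0641 without M29 (Log2FC 0.15).

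*Lhx5*, the closest relative of *Lhx1*, had groups that did not overlap. It was at 25.9, 23.6, 25.3 and 23.1 CPM in the control and at 28.2, 27.2, 26.5 and 26.5 CPM in the stress brains. The stress brains were tightly grouped, and F35 and M29 did not stand out as they did for *Lhx1*. The mean rose from 24.5 ± 1.37 to 27.1 ± 0.83 CPM (SD, n = 4), a Log2FC of 0.15 ± 0.05 (SE) with an edgeR adjusted p of 0.0346. This call was near the threshold and held under 5 of the 13 alternatives, with an adjusted p of up to 0.157, the value without control F37.

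The homeobox genes outside the LIM class were *Barhl2* and *Otp*. *Barhl2* had the largest difference of the 8 genes tested. Its level was 13.4, 11.6, 12.3 and 11.8 CPM in the control and 14.6, 13.8, 15.1 and 16.5 CPM in the stress brains. Every stress brain was above every control brain, and both stressed males were above both stressed females. The mean rose by 22.4% (95% interval 11.3% to 34.6%), from 12.3 ± 0.782 to 15.0 ± 1.12 CPM (SD, n = 4), a Log2FC of 0.29 ± 0.07 (SE) with an edgeR adjusted p of 0.00392. It was called under each of the 13 alternatives, with a Log2FC between 0.24 and 0.35.

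*Otp*, which acts with *Sim1* in neuroendocrine neurons, was at 25.7, 23.3, 27.7 and 25.1 CPM in the control and at 29.2, 28.4, 27.4 and 28.1 CPM in the stress brains. Only control M30 reached into the stress range, above stress M28. The mean went from 25.5 ± 1.80 to 28.3 ± 0.753 CPM (SD, n = 4), a Log2FC of 0.15 ± 0.05 (SE) with an edgeR adjusted p of 0.0432. The call held under 4 of the 13 alternatives, and without control F37, the lowest brain, the Log2FC was 0.11 with an edgeR adjusted p of 0.215. Of the 8 genes, only *Barhl2* and *Lhx5* had every stress brain above every control brain, where 8.2% of all genes tested did, and their exact permutation p of 0.0286 (two-sided) is the smallest that 4 brains against 4 can give.

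**Figure D2:**
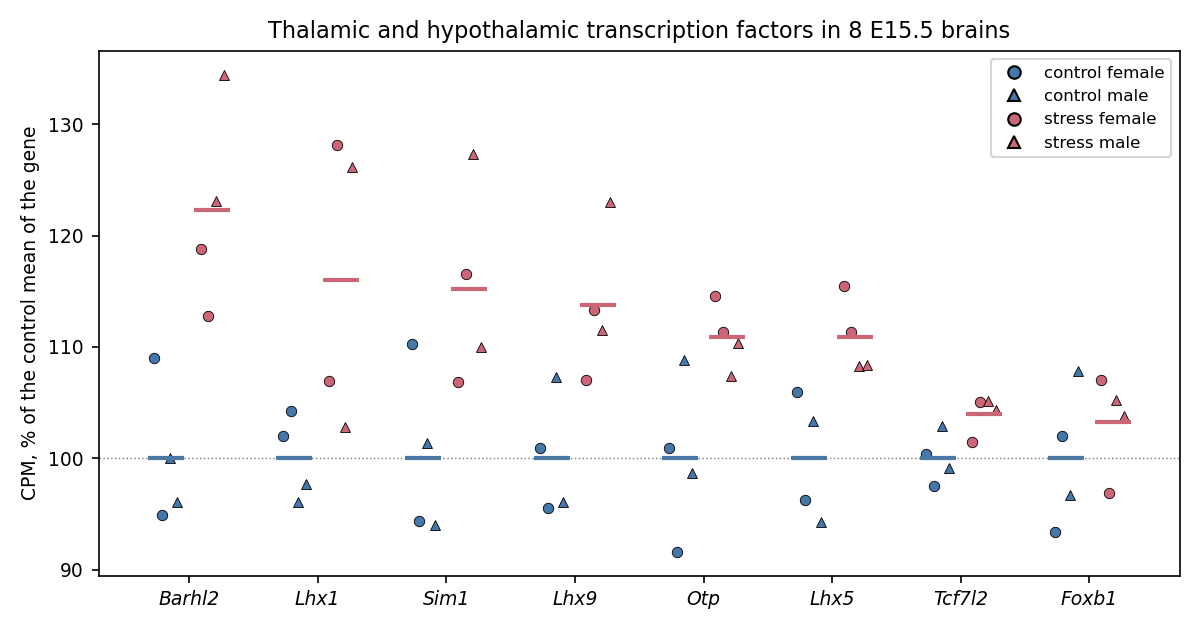
CPM of each of the 8 tested transcription factors as a percent of its control mean, 1 point per brain (circles female, triangles male, control in blue, stress in red, bars the group means). All 8 stress means lie above 100%, the groups are separate for *Barhl2* and *Lhx5*, and the stress brains of *Lhx1* fall into a higher and a lower pair.

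*Tcf7l2*, *Sim1* and *Foxb1* did not pass the test. *Tcf7l2* was at 209, 203, 214 and 207 CPM in the control and at 211, 219, 219 and 217 CPM in the stress brains. As the most deeply counted of the 9 genes, with 5540 to 6295 counts per brain, it gave the narrowest interval, a change of 3.996% (95% interval 0.0802% to 8.06%) with an edgeR adjusted p of 0.176. *Foxb1* was at 7.43, 8.11, 7.69 and 8.58 CPM in the control and at 8.51, 7.70, 8.37 and 8.26 CPM in the stress brains. Its groups lay on top of each other, with a Log2FC of 0.05 (95% interval -0.11 to 0.20, edgeR adjusted p = 0.759).

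*Sim1* was at 5.64, 4.83, 5.19 and 4.82 CPM in the control and at 5.47, 5.97, 6.52 and 5.63 CPM in the stress brains. Its Log2FC of 0.20 was as large as that of *Lhx9*, but its interval was wide, from 0.01 to 0.40 (edgeR adjusted p = 0.159). It rested on 137 to 187 counts per brain, for which counting alone gives a coefficient of variation of about 8.08%, against 1.72% for *Lhx9*. At this depth, a difference of this size in *Sim1* did not pass the test.

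*Rax* was hardly present in these brains. Its counts were 8, 9, 12 and 4 in the control and 4, 5, 4 and 3 in the stress brains, too few for the filter, and the groups overlapped, with stress F35 above control M31 in counts and in CPM. With no filter, the fitted Log2FC was -1.01 ± 0.46 (SE) with an edgeR adjusted p of 0.215. At this depth, no direction could be read for *Rax*.

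**Figure D3:**
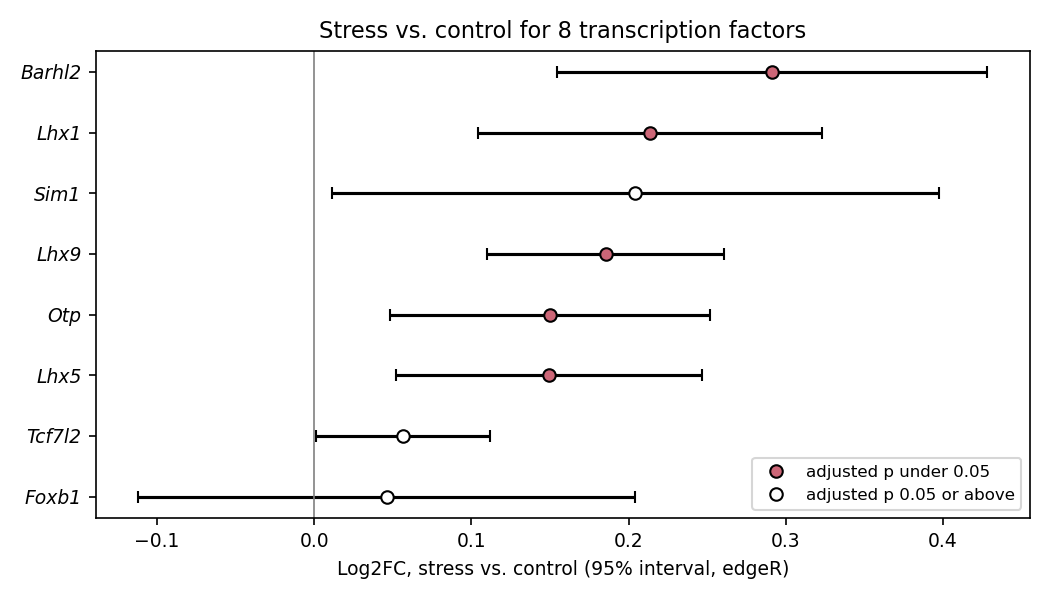
Log2FC of stress vs. control for the 8 tested transcription factors (points, edgeR) with 95% intervals (bars), filled where the adjusted p was under 0.05. The points run from 0.05 (*Foxb1*) to 0.29 (*Barhl2*), and the interval of *Foxb1* alone includes 0.

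Taken by brain, the difference was spread over the stress group. The median of the 8 genes, as a percent of the control mean, was 107%, 112%, 108% and 110.2% in stress F34, F35, M28 and M29, and between 95.9% and 102% in the control brains. Of the 8 genes, 4 were above every control brain in F34, 7 in F35, 5 in M28 and 6 in M29. The share of all genes above every control brain was not computed for single brains, so these counts are only descriptive. The median Log2FC of the 8 genes was 0.17, beside 0.0015 over all genes tested, of which 50.6% were above 0.

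Both sexes showed higher means in the stress group for 8 of the 8 genes. *Barhl2* had a Log2FC of 0.19 in females and 0.39 in males, and *Otp* had 0.23 in females and 0.07 in males, from 2 brains against 2 in each. The sex by stress interaction (male minus female Log2FC) was 0.21 for *Barhl2* (95% interval -0.06 to 0.48, edgeR adjusted p = 0.838) and -0.16 for *Otp* (-0.36 to 0.03, edgeR adjusted p = 0.833). For the other 6 genes it was between -0.03 and 0.15. The interaction was called for 0 of the 8 genes by edgeR and by DESeq2, and 0 had an unadjusted edgeR p under 0.05, where 0.0056% of all genes tested were called (1 gene). These intervals leave room for sex differences as large as the changes themselves. No difference between males and females passed edgeR's test for the 8 genes, 0 of which had an unadjusted p under 0.05, where 0.0896% of all genes tested were called.

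The genes whose pattern over the 8 brains was most like that of *Lhx9*, by the root mean square difference of centred log2 CPM, were *Psat1* (0.0321), an enzyme of serine synthesis, *Sema5a* (0.0328), a semaphorin, and *Cdkn1c* (0.0335), a cyclin-dependent kinase inhibitor. All 3 were called higher by edgeR, with a Log2FC of 0.18, 0.20 and 0.20. This measure includes the difference between the groups, so these calls follow from the choice of the genes and are no separate result. Among the other 7 tested transcription factors, *Otp* was the most like *Lhx9* (0.0711, rank 447 of the genes tested) and *Foxb1* the least (0.137, rank 7159). Counting error adds to this distance, and it alone gives a coefficient of variation of about 6.67% for *Foxb1* against 3.66% for *Otp*.

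Other genes of the thalamus, hypothalamus and the related pathways were described by lists of 90 genes in all, of which 88 were tested. By edgeR, 11 of them were called higher and 6 lower, where 6.49% and 7.27% of all genes tested were. DESeq2 called 6 and 3, where it called 4.19% and 5.1% of all genes tested. By either test, the share of these genes called lower was no higher than that over all genes. The same edgeR shares apply to the counts of each list below. Among 11 thalamus genes, 3 were called higher and 0 lower (median Log2FC 0.07). These were *Lhx2*, a LIM-homeodomain gene (155 ± 7.11 to 171 ± 4.49 CPM, SD, n = 4, Log2FC 0.14, edgeR adjusted p = 0.00317), *Lef1*, a TCF/LEF factor (19.4 ± 1.08 to 21.8 ± 0.421 CPM, Log2FC 0.17), and *Olig3*, a progenitor bHLH gene (1.65 ± 0.276 to 2.36 ± 0.222 CPM, Log2FC 0.52). *Gbx2*, a homeobox gene of early thalamic neurons named after its values were seen, had a Log2FC of 0.07 ± 0.08 (SE) and was not called. Like *Tcf7l2*, 8 of these 11 genes were not called in either direction.

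Of the 4 habenula genes, *Nhlh2*, a bHLH factor that also stands in the Cajal-Retzius list, was called higher (55.9 ± 2.15 to 64.9 ± 3.80 CPM, SD, n = 4, Log2FC 0.21). *Pou4f1*, the POU factor of habenular neurons, had 0.10 ± 0.07 (SE) and *Gng8*, a G protein subunit, 0.16 ± 0.19 (SE), and neither was called.

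Of 21 hypothalamus transcription factors, 5 were called higher and 1 lower (median Log2FC 0.08). The homeobox gene *Dbx1* went from 6.63 ± 0.508 to 8.62 ± 1.42 CPM (SD, n = 4, Log2FC 0.38), the bHLH-PAS partner of *Sim1*, *Arnt2*, from 379 ± 5.82 to 407 ± 12.2 CPM (0.10), and the SOX factor *Sox3* from 18.1 ± 1.6 to 21.3 ± 2.14 CPM (0.24). *Nkx2-1* (0.17) and *Sox14* (0.19) were the other 2 called higher and *Tbx3* (-0.46) the 1 called lower, all named after their values were seen. Regions were not sequenced separately, so the region in which these genes or the thalamus and habenula genes differed was not measured. Of the 7 mammillary and subthalamic genes, which stand beside *Foxb1*, none was called by edgeR in either direction and none had an unadjusted p under 0.05. Among them, the Iroquois homeobox genes *Irx5* and *Irx3* had a Log2FC of 0.11 ± 0.06 and 0.12 ± 0.07 (SE).

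Of 14 neuropeptide genes tested, 4 were called lower and 0 higher by edgeR, where 7.27% of all genes tested were called lower, and 10 were not called. The median Log2FC of the 14 was -0.21, and single genes lay between -0.55 (*Avp*) and 0.45 (*Ghrh*, not called and named after its values were seen). The summed level of all 16 genes of the list was 131 to 139 CPM in the control and 117 to 127 CPM in the stress brains, without overlap. Its largest parts in the control were *Sst* (64.1 CPM), *Tac1* (20.5 CPM, not called), *Npy* (19.4 CPM) and *Penk* (15.7 CPM), so the sum mostly reflects these genes. *Penk*, the enkephalin precursor, fell from 15.7 ± 0.947 to 11.9 ± 1.27 CPM (SD, n = 4, Log2FC -0.40), *Sst*, somatostatin, from 64.1 ± 0.903 to 56.6 ± 1.61 CPM (-0.18), and *Avp*, vasopressin, from 1.95 ± 0.356 to 1.33 ± 0.138 CPM (-0.55). *Npy* (-0.20), named after its values were seen, was the other. *Penk*, *Sst* and *Npy* are also made outside the hypothalamus. *Avp*, *Crh*, *Trh* and *Oxt* are products of neurons that need *Otp* and *Sim1*. Of these, *Crh* (-0.26 ± 0.16, SE) and *Trh* (-0.30 ± 0.14, SE) were not called and *Oxt* did not pass the filter. Of 8 neuron genes, 4 were also called lower by edgeR and 4 were not called, and their part in these falls was not tested.

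Among the 19 LIM-homeodomain genes and LIM cofactors beside *Lhx9*, *Lhx1* and *Lhx5*, 1 was called higher (*Lhx2*) and 1 lower, the cofactor *Ssbp2* (120 ± 5.04 to 111 ± 3.39 CPM, SD, n = 4, Log2FC -0.11). Neither count was above the share over all genes tested (6.49% higher, 7.27% lower). *Ldb1*, the adaptor that LIM-homeodomain proteins share, had a Log2FC of 0.07 ± 0.03 (SE) and was not called. Of the 19 TCF/LEF partners and Wnt targets beside *Tcf7l2*, 3 were called higher and 0 lower: *Ctnnb1*, the gene of β-catenin (Log2FC 0.10 ± 0.02, SE), *Lef1* (0.17 ± 0.05) and *Tcf7l1* (0.24 ± 0.08).

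**Figure D4:**
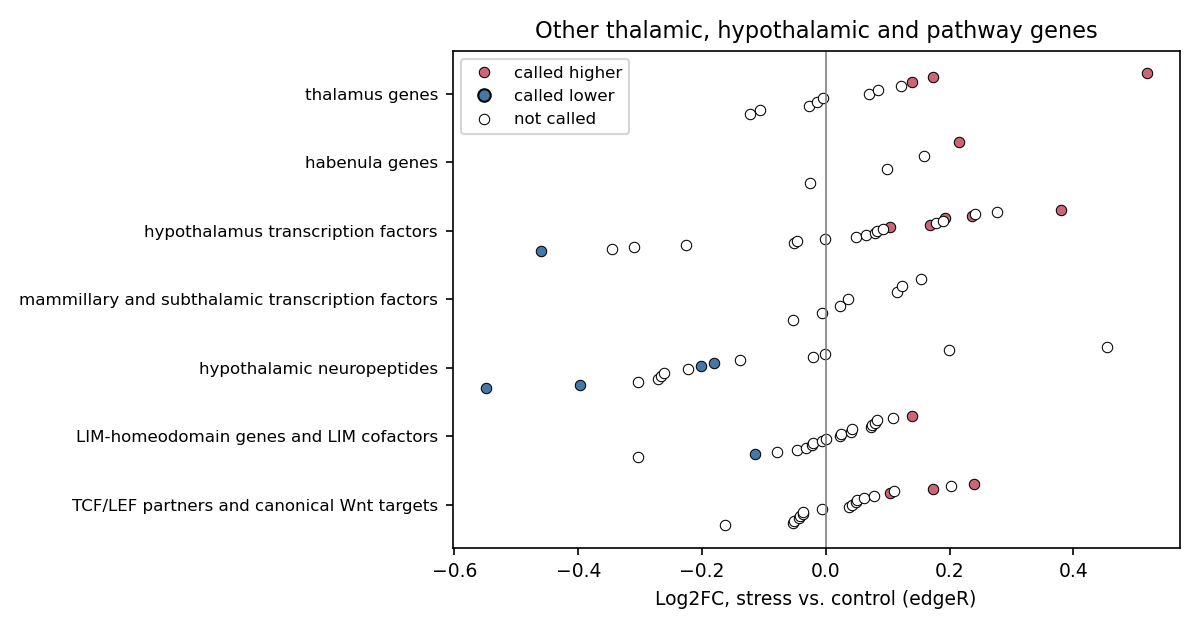
Log2FC of stress vs. control (edgeR) for the tested genes of 7 related lists, 1 point per gene, filled red where called higher and blue where called lower. The neuropeptide list holds 4 of the 6 genes called lower and none called higher, and the other lists lie around or slightly above 0.

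Markers of other cells moved with the groups too. Of 8 neural progenitor genes, 6 were called higher and 0 lower, with a summed level of 1103 to 1205 CPM in the control and 1186 to 1328 CPM in the stress brains. The neuron genes, of which 4 of 8 were called lower and 0 higher, summed to 5991 to 6156 and 5818 to 6006 CPM, and these ranges overlapped. Of 10 cortex and hippocampus genes, 5 were called higher and 1 lower (1508 to 1546 and 1565 to 1619 CPM), so higher calls were also made outside the diencephalic genes.

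For the cells in which *Lhx1* and *Lhx5* are also made, 2 genes were called higher and 2 lower among 6 tested of the Purkinje cell lineage (197 to 207 CPM summed in the control, 204 to 219 CPM in the stress brains) and likewise among 6 of Cajal-Retzius cells (551 to 576 and 567 to 601 CPM). Of 11 midbrain and hindbrain genes, 2 were called higher and 0 lower (99.4 to 119.8 and 102 to 125 CPM). Their sum was 107, 125, 102 and 119 CPM in stress F34, F35, M28 and M29, and 119.8 CPM in control F36. The 2 called were *Pax5* (Log2FC 0.24) and *Gata3* (0.19), while the median of the list was -0.06. Its Hox genes all had a Log2FC below 0, from -0.06 (*Hoxb3*) to -0.51 (*Hoxb4*), and none was called. *Hoxb4* lay between 3.07 and 6.19 CPM in the control and between 0.941 and 6.87 CPM in the stress brains. These genes were named after their values were seen. Among the stress brains, F35 and M29, the 2 highest for *Lhx1*, were also the highest in the Purkinje and Cajal-Retzius sums. In the control, the Purkinje sum was mostly *Foxp2* (121 CPM), also in the thalamus list, and the Cajal-Retzius sum mostly *Reln* (270 CPM) and *Ebf3* (151 CPM). Other markers went both ways. *Pcp4* (-0.28), *Calb1* (-0.17), *Ndnf* (-0.29) and *Calb2* (-0.23) were called lower, and *Skor2* (0.38), *Ebf2* (0.29), *Ebf3* (0.23) and *Nhlh2* (0.21) higher. Whether the regional content of these brains differed was not tested. Eye genes, the other tissue of *Rax*, *Barhl2* and *Lhx9*, were near 0, with 0 of 4 tested called and 5.27 to 6.38 and 4.58 to 6.67 CPM for 8 genes, and pituitary genes likewise, with 0 of 4 tested called, 3.97 to 4.79 and 3.56 to 4.67 CPM for 9 genes, and *Gh* and *Prl* at 0 in all brains.

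Tissue around the brain differed between single brains. Of 5 tested meninges and mesenchyme genes, 3 were called higher (16.0 to 29.1 CPM summed in the control, 20.7 to 63.3 in the stress brains, highest in M28). Of 4 choroid plexus genes 1 was (2.19 to 10.1 and 2.42 to 32.6 CPM, highest in F34). Of 8 red blood cell genes 2 were called higher and 1 lower (366 to 413 and 372 to 387 CPM). The 2 higher were the embryonic globins *Hba-x* (1.73 ± 0.358 to 3.71 ± 0.558 CPM, SD, n = 4, Log2FC 1.09) and *Hbb-y* (3.36 ± 0.824 to 6.00 ± 0.765 CPM, 0.84). Both had every stress brain above every control brain. The 1 lower was *Hbb-bs* (-0.14), and all 3 were named after their values were seen. The part of any of these cell types in the differences of the 8 transcription factors was not tested.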

How the data were processed

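Poly(A) RNA of 8 E15.5 mouse brains was sequenced as paired reads of 100 bases. The authors cleaned the reads (Trim Galore), mapped them to mm10 (TopHat2 2.1.1) and assigned read pairs to GENCODE exons by gene (featureCounts 1.6.3), with no option stated for strand, multiple places or overlapping genes. They deposited raw counts per gene for each brain, without normalization. Of 54752 identifiers, 54723 were matched to a symbol and 34568 had a count in any brain.

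Low genes were removed with filterByExpr (minimum count 10, by group), TMM factors were computed, and edgeR's quasi-likelihood test (glmQLFit, glmQLFTest) was run on condition with sex as covariate (edgeR 4.0.16, limma 3.58.1, R 4.3.3). Benjamini-Hochberg adjustment was over all genes tested, with calls made at adjusted p under 0.05. The 95% intervals use the t distribution with edgeR's degrees of freedom, and CPM used TMM library sizes. The interaction of sex and stress was fitted in all 8 brains. The study's model also held batch, which its list does not give for these libraries. Groups and sex came from the sample labels.

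The 9 genes and the lists were chosen with earlier results of these data known. Named were all 9 genes, per related list the 3 of smallest p (some genes are not reported here), and the 3 genes most like *Lhx9*, which had the smallest p of the 9. Alternatives were DESeq2 1.42.0, DESeq2's size factors or upper-quartile normalization in edgeR, no filter, no sex covariate, and each brain left out in turn. Totals were 25320109 to 29105710 counts, and the scripts were tested on simulated data.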

Additional observations from a re-analysis of the deposited data

How the results depend on the processing

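All 104 alternative values of the Log2FC of the 8 transcription factors were above 0, 84 of them on the same side of the threshold and 20 no longer past it. The number of these genes called higher was 5 with DESeq2's size factors or upper-quartile normalization in edgeR (6.39% and 6.25% of all genes tested). It was 2 with DESeq2's Wald test, 3 with no filter on low counts and 3 with no sex covariate, where the shares were 4.19%, 2.95% and 5.76%. With each brain left out in turn it was 2 to 5, where 4.08% to 5.84% of all genes tested were called higher. It was lowest without stress M29 and 3 without control F37, control M31, stress F34 or stress F35. None was called lower under any alternative. *Lhx9* and *Barhl2* were called under all 13 alternatives, *Lhx1* under 10, *Lhx5* under 5 and *Otp* under 4. *Tcf7l2*, *Sim1* and *Foxb1* were called under none. Of the 90 related genes, 6 were called higher and 3 lower by DESeq2 (11 and 6 by edgeR), 11 and 8 with no filter, and with each brain left out in turn 5 to 11 were called higher and 3 to 6 lower, with 5 higher without stress F34 or stress M29, 7 without control F37 or control M31, and 3 lower without control M30. Leaving a brain out also left fewer samples, and the cause of the lost calls was not tested further.

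No paired analysis was possible because the groups share no replicate numbers. With 1 litter per group, a litter difference cannot be told apart from stress. Depth limits *Rax* and *Sim1*, and for *Foxb1* the interval includes both a fall and a rise.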
